A study of Mus musculus with 2 samples.

Results

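Collagen chain genes were described in single-cell RNA-seq of the mouse dental pulp, the soft tissue inside the tooth that holds vessels, nerve sheath cells and connective tissue cells. The genes were chosen by name alone, as every symbol made of Col, a number, the letter a and a number. Such a symbol was carried by 44 of the 31053 deposited genes, and the 41 with at least 20 unique molecular identifiers (UMIs, 1 per captured transcript) over both libraries were kept. Just inside that limit were Col17a1 with 24 UMIs and Col10a1 with 26, and just outside were Col22a1 with 16 and Col6a5 with 11, while Col6a6 had 0. Both libraries came from C57BL/6 mice at postnatal day 12, from pulp cells that excluded propidium iodide, a dye of dead cells, on a sorter. One library was from control mice and 1 from mice with a knockout of Vegfr2 in endothelial cells, the cells that line vessels. The number of mice, any pooling of animals, the alleles and the driver of the knockout are not given in the sources used here, nor is the genotype of the controls beyond that word.

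Collagens, most of them secreted and some transmembrane, are proteins whose chains wind around each other into helices. Each collagen type is built from the products of 1 or several genes. Fibrillar collagens form the cables of connective tissue, and fibril-associated collagens sit on the surface of those cables. Type IV collagen forms the network of basement membranes, the sheets beneath endothelial cells and around mural and nerve sheath cells, and multiplexins link such sheets to the tissue around them. Dental pulp is known for a loose matrix rich in types I and III. Endothelial cells and the mural cells around them both lay down the vessel's basement membrane.

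After filters, 2309 control and 1679 knockout cells were left, with 31457606 and 15074756 UMIs and medians of 12198 and 8293 UMIs per cell. Cell types were set per cell from marker genes that include no collagen, which placed 88.1% of control and 79.5% of knockout cells. This gave 579 control and 356 knockout cells like dental mesenchyme, 255 and 156 like mural cells, 406 and 139 like endothelium, 449 and 386 like glia and 261 and 199 like macrophages or monocytes. No cell was placed as an odontoblast, the cell that makes dentin, and of 8 odontoblast markers Mmp20 was at 0 in all 4 of the non-immune types. Only 3 barcodes occurred in both libraries, 2 of them among kept cells. Several measures differed between the libraries alongside the collagens. Among cells with Xist or Y-linked UMIs but not both, those with Y-linked UMIs made up 16.1% of control and 33.9% of knockout cells. A list of 13 immediate early genes, which respond quickly to stimulation and to dissociation, was 1.498-fold higher in the knockout library in mesenchyme-like, 2.28-fold in mural-like, 1.61-fold in endothelial-like and 1.52-fold in glia-like cells. Markers of neutrophils summed to 1010 CPM (UMIs scaled to a total of 1e6) in control and 75.9 in knockout mesenchyme-like cells, and to 719.8 and 69.1 in mural-like cells, with 0 of 6 higher in the knockout library in either type. In endothelial-like and glia-like cells these sums went the other way, at 26.0 and 69.9 CPM and at 26.4 and 67.25 CPM. There 5 and 3 of the 6 were higher. Their part in any collagen difference was not tested. Kdr, which encodes VEGFR2, had 1045 CPM in control and 663 CPM in knockout endothelial-like cells. Reads from the 3' end of a transcript check nothing about a deletion upstream.

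The sequences shown here are promoter windows of chains that share a start region or that were read together. Each runs from 250 bases before to 50 bases after the RefSeq start on build GRCm38.p6 (mm10), 5′ to 3′ on the strand of the gene. A window was found for 33 of the 41 genes, and none was found for Col4a3. Capitals mark the letters CCAAT and GGGCGG (a GC box) on either strand. Col4a1 and Col4a2 start head to head on chromosome 8: their windows, chr8:11312777-11313076 on the minus strand and chr8:11312555-11312854 on the plus strand, share 78 bases, and the annotated genes overlap by 22 bases. Col4a4 and Col4a3 are also head to head, with 71 bases between their annotated starts, and the Col4a4 window, chr1:82586800-82587099 on the minus strand, spans the annotated start of Col4a3 at 82586921. Col1a2, whose partner Col1a1 lies on another chromosome, is shown as the contrast, at chr6:4505368-4505667 on the plus strand.
Col4a1: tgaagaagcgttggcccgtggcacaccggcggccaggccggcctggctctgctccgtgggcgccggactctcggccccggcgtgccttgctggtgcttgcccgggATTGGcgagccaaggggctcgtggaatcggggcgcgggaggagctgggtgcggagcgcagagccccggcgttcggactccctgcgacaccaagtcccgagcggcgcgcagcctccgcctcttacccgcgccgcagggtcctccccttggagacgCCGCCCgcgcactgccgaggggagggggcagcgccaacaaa
Col4a2: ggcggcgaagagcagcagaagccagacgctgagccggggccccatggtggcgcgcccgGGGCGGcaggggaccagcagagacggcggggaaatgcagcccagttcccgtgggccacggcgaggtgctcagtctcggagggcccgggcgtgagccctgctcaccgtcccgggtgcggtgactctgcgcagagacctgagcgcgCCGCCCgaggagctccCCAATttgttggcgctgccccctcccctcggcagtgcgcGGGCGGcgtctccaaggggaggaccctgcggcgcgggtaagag
Col4a4: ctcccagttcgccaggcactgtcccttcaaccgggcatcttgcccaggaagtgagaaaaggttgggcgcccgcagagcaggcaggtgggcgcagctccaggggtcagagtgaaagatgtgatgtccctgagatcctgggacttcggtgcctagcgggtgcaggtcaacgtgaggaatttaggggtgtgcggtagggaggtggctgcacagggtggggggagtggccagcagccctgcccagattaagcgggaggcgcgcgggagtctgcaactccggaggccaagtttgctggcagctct
Col1a2: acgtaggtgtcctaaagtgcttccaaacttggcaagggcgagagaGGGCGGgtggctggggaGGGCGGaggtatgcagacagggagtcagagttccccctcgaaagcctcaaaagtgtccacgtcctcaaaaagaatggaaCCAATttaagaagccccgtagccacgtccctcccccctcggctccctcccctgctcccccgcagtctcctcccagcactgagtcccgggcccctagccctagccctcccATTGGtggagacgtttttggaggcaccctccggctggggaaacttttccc
The GC box that starts at base 11312812 of chromosome 8 lies in the shared stretch and was therefore matched in both type IV windows. Over the 36 windows of collagen genes, 58.3% held GGGCGG, 36.1% CCAAT and 13.9% TATAAA, against 35.7%, 37.4% and 13.6% of 32851 windows of all genes. TATAAA was in none of the printed windows. These are matches of letters and not measured binding sites.

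Levels are CPM, with the UMIs of a gene scaled to the total of its cell type. Because 1 UMI stands for 1 transcript end, they were not divided by gene length. Lymphocytes and neutrophils do not make these chains, and their level, from 61 control and 76 knockout cells, was taken as the background of free RNA. A gene was counted as above background in a cell type when its level in the higher library was at least 3 times that background. All collagens together made up 1.5% of control and 1.41% of knockout UMIs in mesenchyme-like cells and 1.27% and 1.31% in mural-like cells. The same share was 0.749% and 0.539% in endothelial-like cells and 1.07% and 0.996% in glia-like cells. It was 0.0196% and 0.0165% in macrophage-like cells, no more than the 0.0245% and 0.0198% of lymphocytes and neutrophils.

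By the mean of the libraries, 19 collagens were highest in mesenchyme-like cells, 9 in glia-like, 8 in mural-like and 5 in endothelial-like cells. The highest type was the same in both libraries for 18, 7, 7 and 1 of these. The 5 that were highest in endothelial-like cells by this mean were Col4a1, Col4a2, Col13a1, Col15a1 and Col17a1, of which only Col13a1, a transmembrane collagen, was highest there in both libraries. In the knockout library Col4a1 and Col4a2 were highest in mural-like cells and Col15a1 in glia-like cells. The partner chains of type I had their highest levels in different cell types. Col1a1 was highest in mesenchyme-like cells, at 4333 CPM in the control and 3718 CPM in the knockout library. Its partner Col1a2 was highest in glia-like cells, at 2622 and 2447 CPM. The single chain of type III, Col3a1, had 3875 and 4358 CPM in mesenchyme-like cells and more than 2000 CPM in mural-like and glia-like cells of both libraries. The chain of type XXVIII, Col28a1, known from the nerve sheath, had 549 and 576 CPM in glia-like cells, and the next type by mean, mural-like cells, had 75.4 and 56.2 CPM. Among chains read in the mesenchyme-like cells and hardly elsewhere, Col9a2 had 1063 and 729 CPM there and a mean of 32.6 CPM in the next type, glia. Col25a1, a transmembrane collagen, had 201 and 305 CPM there and a mean of 8.31 CPM in mural-like cells. Col10a1, known from hypertrophic cartilage, and Col17a1, of epithelial attachment plaques, reached 20 UMIs in no cell type and are not compared further.

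**Figure D1:**
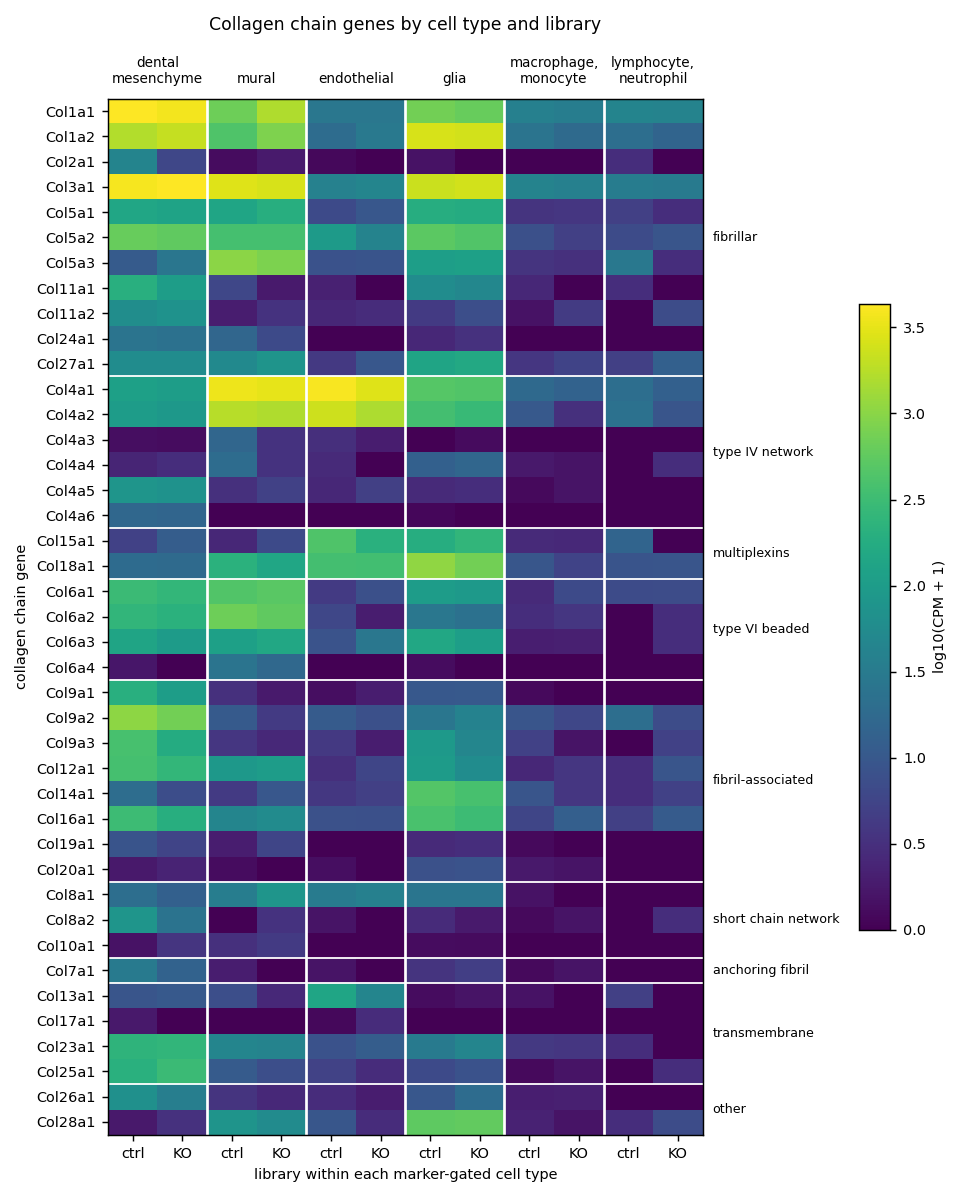
Heatmap of log10(CPM + 1) for the 41 collagen chain genes, grouped by family from top to bottom, in 6 marker-gated cell types with the control library (ctrl) to the left of the knockout library (KO) in each. Col1a1 and Col3a1 are brightest in mesenchyme, Col4a1 and Col4a2 in mural and endothelial cells, and Col28a1 and Col14a1 in glia, while lymphocytes and neutrophils show the background.

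With 1 library per genotype there is no replicate check and no test. Differences are therefore given as the knockout over control ratio of CPM, with an exact 95% interval for 2 Poisson counts that covers counting error only. A gene counts as lower or higher past 1.5-fold. A lower level in a cell type cannot be told apart from a smaller share of the cells in it that make the chain.

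In mesenchyme-like cells the knockout library had lower levels of the cartilage-type chains Col2a1, Col11a1, Col9a1 and Col9a3 and of Col7a1, Col8a2, Col14a1 and Col16a1, while types I and III differed by less than 1.5-fold. Over all mesenchyme-like cells Col9a2 was inside the 1.5-fold limit and Col11a2 was at 1.18. Of 34 collagens with at least 20 UMIs, 11 (32.4%) were at least 1.5-fold lower, beside 13.1% of all 12776 genes with that many UMIs. Another 3 (8.82%) were at least 1.5-fold higher, beside 11.3% of all genes. The median log2 ratio was -0.23 over the collagens and -0.05 over all genes. Col18a1 alone of the 34 was not above background. Total collagen was 0.943 of the control level (interval 0.932 to 0.953).

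Types II, IX and XI, which build the thin fibrils of cartilage, were read in the mesenchyme-like cells at unequal levels. Col2a1, the type II chain, had 332 UMIs (42.2 CPM) in control and 15 UMIs (4.95 CPM) in knockout cells, a ratio of 0.118 (0.065 to 0.197). Col11a1 had 196 and 107 CPM, a ratio of 0.545 (0.482 to 0.615), whereas its partner Col11a2 had 60.1 and 70.7 CPM, a ratio of 1.18 (0.996 to 1.39). So over all mesenchyme-like cells only 1 of the type XI chains was lower, but within cluster 4, described further on, both were. The type IX chains, which coat these fibrils, were each lower to a different degree. Col9a1 had 194 and 107 CPM, a ratio of 0.551 (0.487 to 0.621). Col9a3 had 380 and 171 CPM, a ratio of 0.450 (0.409 to 0.495). Col9a2 had 1063 and 729 CPM, a ratio of 0.686 (0.654 to 0.719). That is inside the 1.5-fold limit over all mesenchyme-like cells, but not within every cluster described further on. For Col9a1 and Col9a3 the ratios were 1.23 and 0.996 in the 64 control and 65 knockout cells with Y-linked UMIs, and 0.468 and 0.364 in Xist-positive cells. The difference between these sets of cells was not tested. Col2a1 and Col11a1 stayed below 1 under all 13 alternatives of processing, from 0.0301 to 0.256 and from 0.504 to 0.635.

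Among the fibrillar chains that make up most of the matrix, Col1a1 was lower in the knockout library and its partner Col1a2 higher. The ratio was 0.858 (0.840 to 0.877) for Col1a1. For Col1a2, at 1638 and 2091 CPM, it was 1.28 (1.24 to 1.32), and for Col3a1 it was 1.13 (1.10 to 1.15). Type I chains reversed in cells with Y-linked UMIs, to 1.06 and 0.937. The type V chains that join type I fibrils were close to equal, with ratios of 0.909 for Col5a1 and 0.911 for Col5a2. Col5a3, at 10.0 and 26.1 CPM, had a ratio of 2.60, but 1 knockout cell held 35.4% of its UMIs there and the ratio was 1.14 when cells were typed by cluster. Col24a1 and Col27a1, minor fibrillar chains, had ratios of 0.885 and 1.01, with intervals that include 1. Cluster 1 of those described further on held 122 of the 191 control UMIs of Col24a1. Within it the Col24a1 ratio was 0.494 (0.327 to 0.7275), past the limit. In clusters 0 and 4 it was 1.27 and 0.557, with intervals that include 1.

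The other chains that lay past the limit on the lower side belong to 4 families. Col8a2, a short chain of hexagonal networks, had 77.3 CPM in control and 23.1 CPM in knockout cells, a ratio of 0.299 (0.230 to 0.383), which was 0.643 after each cell was thinned to 2000 UMIs. In clusters of these cells made without collagen genes and described further on, cluster 2 gave 384 of its 609 control UMIs, from 94 control and 15 knockout cells. Its ratios in clusters 0, 1, 2 and 4 were 0.778, 0.886, 0.491 (0.259 to 0.850) and 0.952, so that Col8a2 was past the limit within cluster 2 alone of these 4. Col7a1, the chain of anchoring fibrils, had 30.7 and 12.9 CPM, a ratio of 0.419. Cluster 2 held 124 of its 242 control UMIs. The Col7a1 ratios within clusters 0, 1, 2 and 4 were 0.741, 0.462 (0.154 to 1.17), 1.17 (0.548 to 2.23) and 0.884, all with intervals that include 1. Among fibril-associated chains, Col14a1 had 18.9 and 6.27 CPM, a ratio of 0.332, and Col16a1 had 314 and 192 CPM, a ratio of 0.611. Within the same 4 clusters the Col16a1 ratios were 0.725, 0.859, 1.25 and 0.713, none past the limit. These are chains that link fibrils to their surroundings or adjust their spacing. Col26a1, a small secreted collagen, had 66.4 and 35.0 CPM, a ratio of 0.527, and 0.896 in cells with Y-linked UMIs. Cluster 2 held 285 of its 523 control UMIs, and the Col26a1 ratios within clusters 0, 1, 2 and 4 were 1.16, 1.54, 1.02 (0.613 to 1.60) and 0.804, none of them as low as 0.527. Col19a1 had a ratio of 0.587 with an interval that includes 1 (0.304 to 1.06). Col8a1 had a ratio of 0.625, but 1 cell held 75.7% of its 37 knockout UMIs, and the direction reversed under 3 of 12 alternatives. Col12a1, at 370 and 258 CPM, was inside the limit at 0.699.

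Higher in knockout mesenchyme-like cells were Col25a1 and Col15a1 besides Col5a3. Col25a1 had 201 and 305 CPM, a ratio of 1.52 (1.40 to 1.64) that ranged from 1.23 to 1.59 over 13 alternatives. Col15a1, a multiplexin, rested on 32 control and 33 knockout UMIs, with a ratio of 2.68 (1.60 to 4.50), and was at 1.02 in cells with Y-linked UMIs. It counts as above background through the knockout library alone, at 10.9 CPM beside 0. Its 4.06 CPM in control cells lay below the 13.7 CPM of control lymphocytes and neutrophils, so the ratio has no control level above background. Markers of mural cells, which reached 229.7 CPM in control and 528 CPM in knockout mesenchyme-like cells, with 9 of 10 higher, moved in the same direction. So did markers of glia, at 123 and 224.8 CPM, with 8 of 10 higher. Col15a1 itself was read at 182 and 246 CPM in glia-like cells and at 1.54 and 5.62 CPM in mural-like cells. The part of either in the Col15a1 difference was not tested. The remaining chains lay inside the limit over all mesenchyme-like cells. Type IV chains Col4a1, Col4a2, Col4a5 and Col4a6 had ratios from 0.846 to 0.953, and the type VI chains Col6a1, Col6a2 and Col6a3 from 0.744 to 0.845. Within clusters 0, 1, 2 and 4 the Col4a1 ratios were 0.617 (0.434 to 0.861), 0.73, 0.382 (0.103 to 0.998) and 0.716. Those of clusters 0 and 2 lay past the limit. Col4a2 was past it in cluster 4, at 0.564 (0.361 to 0.860). The Col6a3 ratios in the 4 clusters were 0.6415 (0.484 to 0.841), 1.31, 0.467 (0.2215 to 0.870) and 0.981. Those of Col6a2 were 0.673, 1.125, 1.28 and 0.589 (0.443 to 0.777). Past the limit were thus Col6a3 in clusters 0 and 2 and Col6a2 in cluster 4. In cluster 5, with 11 control and 6 knockout cells, the Col4a1 ratio was 1.91, on 95 and 87 UMIs. Col13a1 and Col23a1, both transmembrane, had ratios of 1.12 and 1.07 with intervals that include 1.

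**Figure D2:**
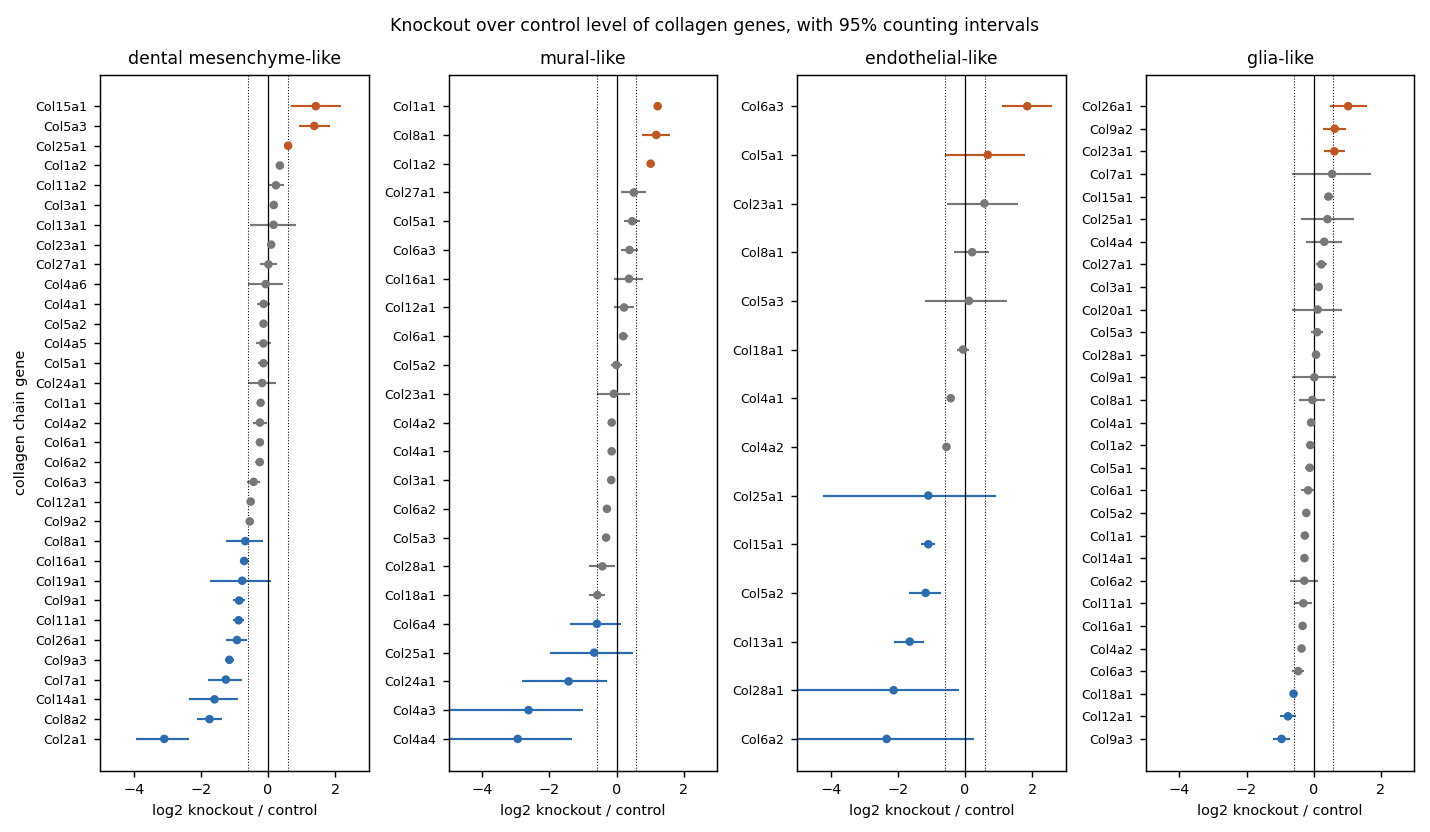
Knockout over control ratio (log2 axis) of each collagen above background with at least 20 UMIs, in 4 cell types, as points with 95% counting intervals, blue at least 1.5-fold lower, orange at least 1.5-fold higher, grey between, dotted lines at 1.5-fold. Col2a1 is lowest in mesenchyme at a ratio of 0.118, and intervals that run off the axis rest on 1 to 3 knockout UMIs.

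Mesenchyme-like cells were also clustered without collagen genes, after centring each gene within its library. Centring was chosen after clusters without it placed 71.1% of knockout cells and 6.05% of control cells in 1 cluster. Within clusters Col1a1 was not lower throughout. Its ratio was 1.02 in cluster 0, led by Opcml and Hopx, 1.11 in cluster 1 and 0.813 in cluster 4, with 5120, 2579 and 2712 CPM in the control library. In cluster 2, led by Tac1 and Smoc2, Col1a1 had 6232 CPM in control and 10180 CPM in knockout cells, and this cluster held 94 control but 15 knockout cells. Col9a1 and Col9a3 had their highest control levels in clusters 0 and 2 among clusters 0, 1, 2 and 4, whereas Col9a2 had 1480, 1150, 734.8 and 1034 CPM there and was lowest in cluster 2. The Col9a2 ratios in clusters 0, 1, 2 and 4 were 0.6675, 0.575 (0.535 to 0.617), 0.981 and 0.582 (0.511 to 0.662). Those of clusters 1 and 4 lay past the limit. In cluster 0 Col9a1 had 409 and 270 CPM, a ratio of 0.660 (0.565 to 0.769), and Col9a3 had 855 and 403 CPM, a ratio of 0.471 (0.417 to 0.532). In cluster 1, where Col9a1 was read at 54.9 and 56.6 CPM, its ratio was 1.03. The Col11a1 ratios were 0.647, 0.902, 1.07 and 0.507 in clusters 0, 1, 2 and 4. Those of Col11a2 were 1.095, 1.055 and 0.376 (0.207 to 0.645) in clusters 0, 1 and 4, the last on 70 and 17 UMIs. In cluster 2 Col11a2 had 10 and 0 UMIs. The lower Col9a3 level was thus also present within the cluster that held most of its UMIs, with 128 control and 79 knockout cells. Cluster 2 held 169 of the 332 control UMIs of Col2a1, with a ratio of 0.429 (0.138 to 1.02) within it. Cluster 3, with 18 control and 2 knockout cells, held 61 more. The Col2a1 ratio was 0.171 (0.0612 to 0.387) in cluster 0 and 1.01 in cluster 1, there on 7 and 4 UMIs. Col25a1 differed in cluster 4, with a ratio of 1.93 (1.55 to 2.40), and had ratios of 0.991 and 1.11 in clusters 0 and 1.

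In mural-like cells, which wrap vessels as pericytes or smooth muscle, type I chains were higher in the knockout library, the basement membrane chains Col4a1 and Col4a2 were nearly level, and the minor type IV chains were almost absent from it. Col18a1 was lower by less than 1.5-fold. Of 26 collagens with enough UMIs, 7 (26.9%) were at least 1.5-fold lower, beside 11.7% of all 10555 genes. The 4 that were higher (15.4%) stand beside 10.9% of all genes. Above background were 23, of which 5 were lower and 3 higher, with no share of all genes under the same filter to set beside them. The median log2 ratio was -0.15 (all genes 0.01). Total collagen had a ratio of 1.03 (1.01 to 1.04), which fell below 1 under 6 alternatives.

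Col1a1 had 2210 UMIs (683 CPM) in control and 1984 UMIs (1594 CPM) in knockout mural-like cells, a ratio of 2.33 (2.20 to 2.48). Col1a2 had 429 and 866 CPM, a ratio of 2.02 (1.86 to 2.19). Thinned to 2000 UMIs, 46.4% of control cells (116 of 250, exact interval 40.1 to 52.8%) and 64.8% of knockout cells (94 of 145, 56.5 to 72.6%) had a Col1a1 UMI. In lymphocytes and neutrophils these shares were 14.04% and 6.85%. The unthinned shares in mural-like cells were 68.2% and 74.4%, at medians of 11581 and 7870.5 UMIs per cell, and the lymphocyte and neutrophil medians were 5396 and 5972. More of the knockout cells with at least 2000 UMIs therefore held the transcript at equal depth. Thinning left out 5 control and 11 knockout mural-like cells below that depth. Col3a1 did not go with type I: it had 2921 and 2616 CPM, a ratio of 0.895. Markers of dental mesenchyme, which makes both type I chains, reached 688 CPM in control and 988 CPM in knockout mural-like cells, 7 of 12 higher. Their part was not tested. When cells that show at least 3 markers of another type were left out, 78 control and 63 knockout cells remained, and the ratios were 2.55 and 1.61. Over 13 alternatives they ranged from 1.62 to 2.89 for Col1a1 and from 1.43 to 3.03 for Col1a2, all above 1.

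The difference in type I was not the same in all mural clusters made without collagen genes. Col1a1 had a ratio of 6.36 (5.40 to 7.52) in cluster 0, led by Fst and Mgp, where its level was 374 CPM in control and 2381 CPM in knockout cells. In clusters 1 and 3 the Col1a1 ratios were 2.02 and 3.82, and the Col1a2 ratios 1.52 and 1.01. In cluster 5, which held 3 control and 34 knockout cells and was led by the immediate early genes Nr4a2 and Crem, the Col1a1 ratio was 0.275. Clusters 2 and 4, with 2 knockout cells each, had Col1a1 ratios of 0.952 (0.510 to 1.64) and 0.572 (0.272 to 1.06). Higher Col1a1 was thus read in clusters 0, 1 and 3 and not in clusters 2, 4 and 5, each of which held at most 3 cells of 1 library. Col8a1, a vessel-wall collagen, had 34.0 and 77.1 CPM in all mural-like cells, a ratio of 2.27 (1.71 to 3.01). Of its UMIs, 8 control and 81 knockout ones came from cluster 0, and in cluster 1 the counts were 58 and 5. The Col8a1 ratio was 1.29 in Xist-positive and 9.59 in Y-positive mural-like cells.

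The basement membrane chains Col4a1 and Col4a2 were both 0.904 of the control level in mural-like cells, at 3490 and 3156 CPM and at 1760 and 1592 CPM. The minor type IV chains differed far more, on few UMIs. Col4a3 had 48 UMIs in control and 3 in knockout cells, a ratio of 0.163 (0.0324 to 0.504). Col4a4, its head-to-head neighbour, had 60 and 3 UMIs, a ratio of 0.130 (0.0261 to 0.399). For each of these chains 66.7% of the knockout UMIs came from 1 cell. In glia-like cells, where Col4a4 was read at 12.05 and 14.98 CPM, its ratio was 1.24 with an interval that includes 1. Col18a1, a multiplexin whose end fragment is known as endostatin, had 211 and 142 CPM in mural-like cells, a ratio of 0.673 (0.567 to 0.795). Within mural clusters 0 and 1 the Col18a1 ratios lay further from the control, at 0.4255 (0.295 to 0.602) and 0.400 (0.253 to 0.608).

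The type VI chains, which form beaded filaments around cells, were highest in mural-like cells by mean and had ratios there of 1.15 for Col6a1, 0.819 for Col6a2 and 1.31 for Col6a3. Col6a4 had 24.1 and 16.1 CPM, a ratio of 0.667 with an interval that includes 1. Col5a3, the type V chain with its highest level in mural-like cells, had 1018 and 821 CPM, a ratio of 0.806 (0.751 to 0.865). Col5a1 had a ratio of 1.38, Col5a2 of 0.996 and Col27a1 of 1.43. Col24a1 had 15.1 and 5.62 CPM, a ratio of 0.371 on 49 and 7 UMIs. For Col12a1, Col16a1, Col23a1 and Col25a1 the intervals include 1, and Col28a1 had a ratio of 0.746. The Col12a1 ratio of 1.17 over all mural-like cells was not that of each cluster. In cluster 0 it was 6.69 (3.88 to 12.2), on 17 and 66 UMIs, and in cluster 1 it was 0.985.

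**Figure D3:**
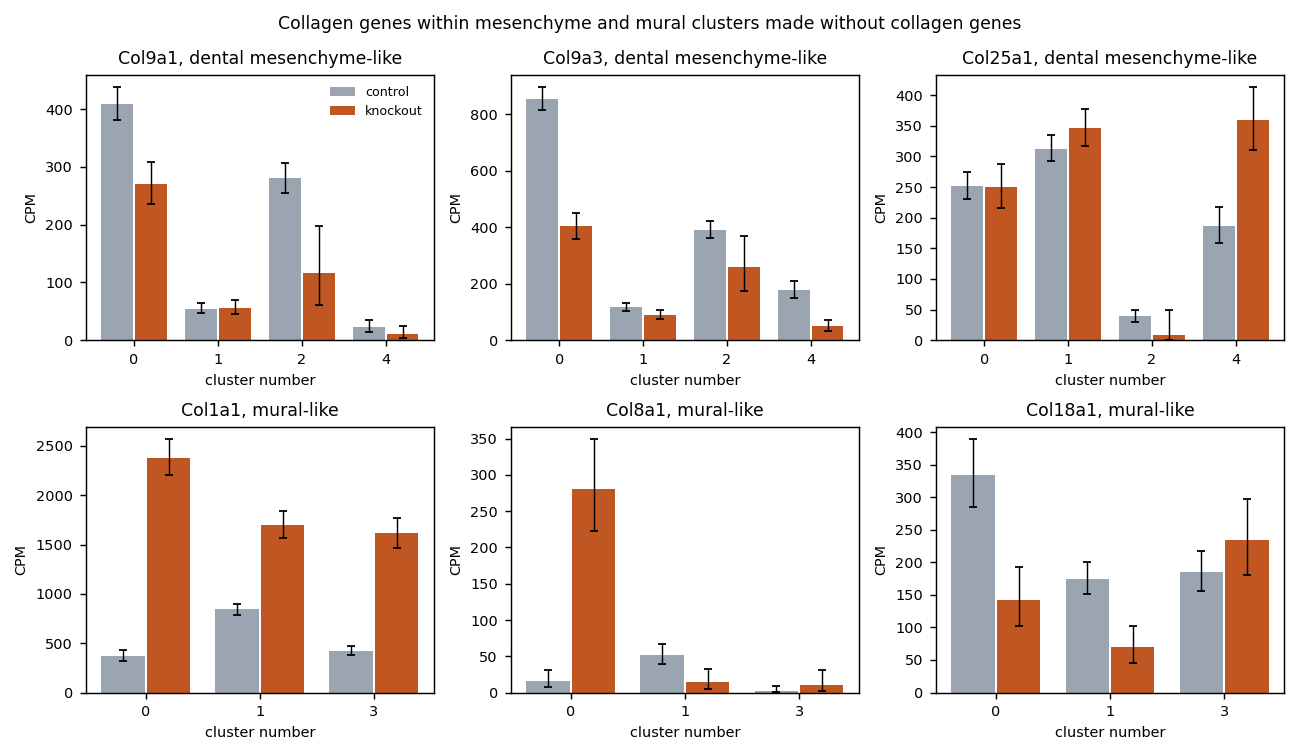
CPM of 3 collagens in mesenchyme-like clusters and 3 in mural-like clusters with at least 10 cells in each library, control in grey and knockout in orange, with 95% Poisson intervals. Col1a1 is higher in the knockout library in mural clusters 0, 1 and 3, and the Col8a1 difference is that of cluster 0, at 16.1 and 281 CPM.

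In endothelial-like cells, the cells that carry the deletion by the label, collagens made up less of the RNA in the knockout library. The abundant type IV chains were lower by less than 1.5-fold, and Col15a1, Col13a1 and Col5a2 were lower by more. Of 21 collagens with enough UMIs, 6 (28.6%) were at least 1.5-fold lower, beside 15% of all 10951 genes. The 5 that were higher (23.8%) stand beside 11.8% of all genes. Over all 21 the median log2 ratio was -0.04 (all genes -0.02). Only 14 of the 21 were above background, with 6 lower and 2 higher and a median of -0.49. The background filter takes the higher library alone, and all genes were not put through it. Nothing is therefore read from the counts and the median of these 14. Of the 6 lower, Col6a2, Col25a1 and Col28a1 had 1, 2 and 2 knockout UMIs. Total collagen had a ratio of 0.719 (0.699 to 0.739).

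Col4a1 had 20977 UMIs (3957 CPM) in control and 3029 UMIs (2940 CPM) in knockout endothelial-like cells, a ratio of 0.743 (0.715 to 0.772). Col4a2 had 2305 and 1568 CPM, a ratio of 0.681 (0.646 to 0.717). Neither passed 1.5-fold, and both stayed below 1 under 13 alternatives, from 0.664 to 0.786 and from 0.559 to 0.707. The multiplexins differed from each other. Col15a1 had 438 and 205 CPM, a ratio of 0.468 (0.404 to 0.539), whereas Col18a1 had 357 and 342 CPM, a ratio of 0.958 (0.853 to 1.07). Thinned to 2000 UMIs, 43.1% of control endothelial-like cells (162 of 376, exact interval 38.02 to 48.3%) and 19.6% of knockout ones (21 of 107, 12.6 to 28.4%) had a Col15a1 UMI. In lymphocytes and neutrophils the share was 3.51% in the control library and 0 of 73 cells in the knockout library, which allows a share of up to 4.11% when 3 counts are set as the floor. Unthinned, the endothelial shares were 67.2% and 38.9%, at medians of 9994 and 5961 UMIs.

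Col13a1, a transmembrane collagen of cell contacts, had 726 UMIs (137 CPM) in control and 45 UMIs (43.7 CPM) in knockout endothelial-like cells, a ratio of 0.319 (0.231 to 0.431), and 1 knockout cell held 33.3% of its UMIs. Col5a2 had 94.3 and 41.7 CPM, a ratio of 0.442 (0.316 to 0.605). Col28a1 had 45 and 2 UMIs, a ratio of 0.229 (0.0269 to 0.875), and was at 2.73 in cells with Y-linked UMIs. These were lower. The 1 chain above background that was higher with an interval that leaves out 1 was Col6a3, with 7.55 and 27.2 CPM, a ratio of 3.60 (2.14 to 5.99) on 40 and 28 UMIs. Col5a1, Col5a3, Col6a2, Col8a1, Col23a1 and Col25a1 had intervals that include 1. The type I and III chains stood at background, with 26.8 and 27.2 CPM for Col1a1 beside 43.1 and 42.1 CPM in lymphocytes and neutrophils.

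Endothelial clusters made without collagen genes differed in collagens, and the libraries differed in which clusters held the cells. In the control library Col4a1 ranged from 1475 CPM in cluster 2, led by Adgrg6 and Ackr1, to 7288 CPM in cluster 0, led by Rflna and Esm1. Cluster 0 held 95 control and 12 knockout cells. There Col4a1 had 5753 CPM in knockout cells, a ratio of 0.789 (0.722 to 0.862). In cluster 4, led by genes with Gja5 of arterial endothelium among them, with 58 and 35 cells, the Col4a1 ratio was 0.514 (0.470 to 0.562). It was 1.03, 1.25, 0.987 and 0.956 in clusters 1, 2, 3 and 5. The lower Col4a1 level was thus read within clusters 0 and 4. The Col4a2 ratios in these clusters were 0.702 and 0.484, and Col4a2 also had 0.610 (0.450 to 0.808) in cluster 1 and 0.783 (0.629 to 0.965) in cluster 5. It was higher in cluster 2, at 1.32 (1.14 to 1.53), and 1.09 in cluster 3, with an interval that includes 1. Col18a1, level over all endothelial-like cells, had 1269 CPM in control and 656 CPM in knockout cells of cluster 4, a ratio of 0.517 (0.445 to 0.600), and the same cluster held 25.2% of knockout and 14.3% of control cells.

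Col13a1 was mainly a transcript of cluster 0, with 441 of its control and 34 of its knockout UMIs. Within that cluster the ratio was 0.897, with an interval that includes 1 (0.614 to 1.27), beside 0.319 over all endothelial-like cells. In cluster 1 Col13a1 had 131 and 0 UMIs, from 92 and 19 cells with medians of 8526 and 1592 UMIs per cell. In cluster 4 it had 38 and 3 UMIs, a ratio of 0.171 (0.0338 to 0.539). Col15a1 was lower within clusters 0, 3 and 4, with ratios of 0.774, 0.463 and 0.488, and had a ratio of 1.46 with an interval that includes 1 in cluster 5, led by cell cycle genes such as Ccna2. Cluster 6, with the stress gene Gdf15 among its leading genes, held 14 knockout and 0 control cells, and Col4a1 was at 4432 CPM in it.

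**Figure D4:**
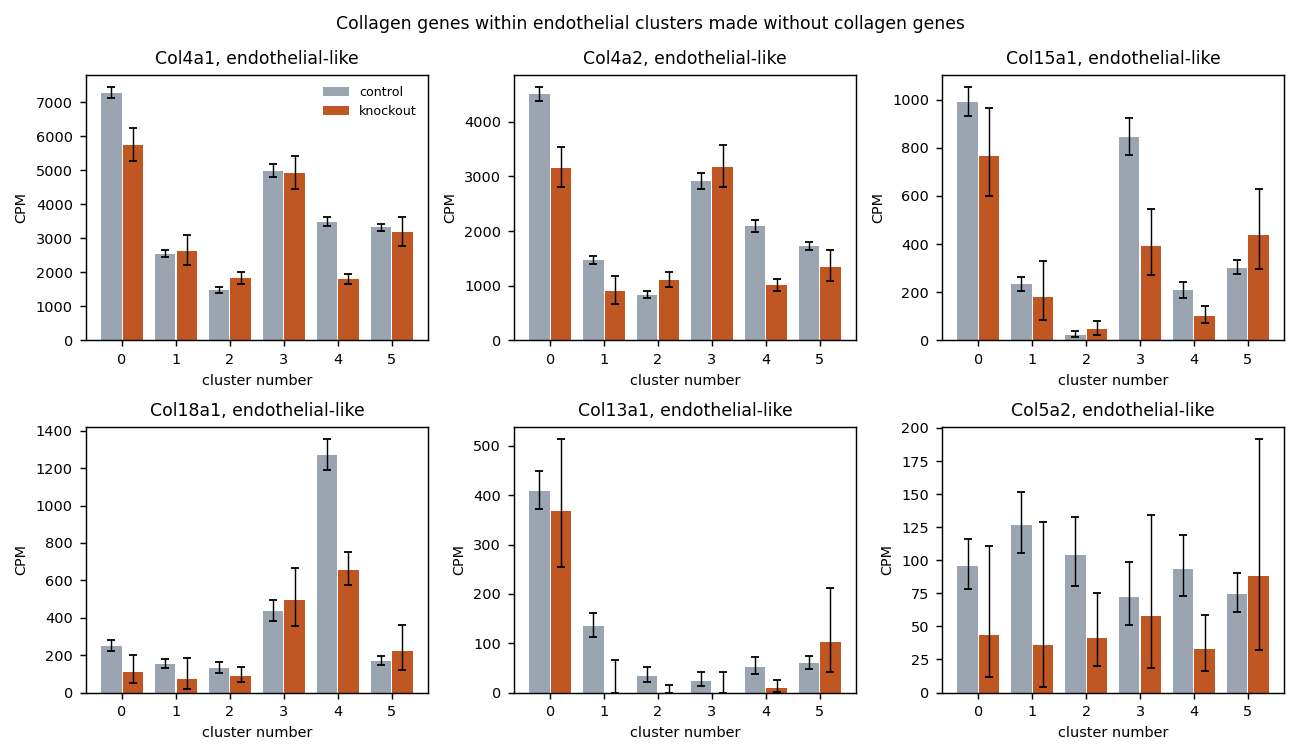
CPM of 6 collagens in endothelial-like clusters with at least 10 cells in each library, control in grey and knockout in orange, with 95% Poisson intervals. In the control library Col4a1 and Col4a2 are highest in cluster 0, and in cluster 4 their ratios are 0.514 and 0.484.

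In glia-like cells, the sheath cells of nerves, collagens were nearly level between the libraries. Of 30 with enough UMIs, 3 (10%) were at least 1.5-fold lower, beside 9.35% of all 11570 genes, and 4 (13.3%) were higher, beside 10.6%. Both shares are close to those of all genes. The median log2 ratio was -0.06 (all genes 0.01), and 29 of the 30 were above background. Total collagen had a ratio of 0.93 (0.918 to 0.942).

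Glia-like cells read much Col1a2 and Col3a1, with ratios of 0.934 and 1.11, and less Col1a1, at 736 and 613 CPM, with a ratio of 0.833. Chains that were highest in glia-like cells included Col14a1, at 463 and 383 CPM, a ratio of 0.827, and Col16a1, at 395 and 315 CPM, a ratio of 0.796. Col28a1 had a ratio of 1.05 with an interval that includes 1 (0.993 to 1.11). Col18a1 was the most abundant chain past the limit, at 1097 and 725 CPM, a ratio of 0.661 (0.631 to 0.692). Its ratios within the 5 glial clusters were 0.883, 0.895, 0.976, 0.829 and 0.635. Cluster 0, with 1813 CPM of Col18a1 in the control library, held 43.0% of control and 37.3% of knockout cells, and cluster 3, with 163 CPM, held 20.5% and 30.3%. The Col18a1 level over all glia-like cells thus lay further from the control than in 4 of the 5 clusters.

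Col9a3 had 89.3 and 46.1 CPM, a ratio of 0.516 (0.430 to 0.616), and lay between 0.514 and 0.776 in every glial cluster. Its partner Col9a2 was higher, at 25.6 and 39.6 CPM, a ratio of 1.55 (1.22 to 1.96), while Col9a1 had a ratio of 1.01. Col9a2 counts as above background through the knockout library alone, where the background was 6.01 CPM. In the control library the background of Col9a2 was 19.6 CPM, close to its level in glia-like cells. The Col9a2 ratio was 1.15 (0.657 to 1.96) in cluster 0, 0.613 (0.183 to 1.64) in cluster 1, 1.15 (0.812 to 1.63) in cluster 3 and 1.84 (1.02 to 3.44) in cluster 4, and only the last of these intervals leaves out 1. Col12a1, which lies on type I fibrils, had 97.0 and 57.1 CPM, a ratio of 0.588 (0.499 to 0.692). Higher in the knockout library were Col23a1, with a ratio of 1.53, and Col26a1, with 8.87 and 18.1 CPM, a ratio of 2.04 (1.40 to 2.99) that was 0.946 after thinning. Cluster 3 held 46 of the 53 control and 49 of the 64 knockout UMIs of Col26a1, with a ratio of 1.07 (0.704 to 1.64) within it. Col15a1 had 182 and 246 CPM, a ratio of 1.36. Basement membrane chains had ratios of 0.948 for Col4a1 and 0.779 for Col4a2. Type V chains lay between 0.859 and 1.07, and type VI chains between 0.726 and 0.891. Col11a1 had a ratio of 0.808 and Col27a1 of 1.17, and the intervals of Col4a4, Col7a1, Col8a1, Col20a1 and Col25a1 include 1.

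In macrophage-like or monocyte-like cells 10 collagens had enough UMIs, of which 5 (50%) were at least 1.5-fold lower, beside 11.9% of all 9989 genes, and 1 (10%) was higher, beside 10.9%. Of these 10, 9 were at background, so no collagen but 1 is read as a transcript of these cells. Col14a1 was the exception, with 32 control and 5 knockout UMIs, and 1 control cell held 43.8% of them.

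Partner chains of a collagen type did not keep a fixed proportion. Per Col1a1 UMI, control mesenchyme-like cells had 0.378 Col1a2 UMIs and knockout ones 0.562, with intervals of 0.371 to 0.386 and 0.545 to 0.580. Glia-like cells had 3.56 and 3.99, more Col1a2 than Col1a1, although type I collagen molecules hold more Col1a1 than Col1a2 chains. In mural-like cells it was 0.628 and 0.543.

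Col4a2 per Col4a1, the pair with a shared start region, was 0.505 (0.489 to 0.521) and 0.505 (0.478 to 0.533) in mural-like cells. In endothelial-like cells it was 0.582 and 0.534, in glia-like cells 0.752 and 0.618, and in mesenchyme-like cells, where both are low, 0.873 and 0.809. The knockout value was thus equal in mural-like cells and lower in the other types, with intervals that overlap in mesenchyme-like cells only. Across thinned endothelial-like cells, the Spearman correlation of Col4a1 with Col4a2 was 0.729 over 376 control cells and 0.594 over 107 knockout cells, and in mural-like cells it was 0.429 over 250 and 0.422 over 145. These correlations are descriptions over cells that share a library. Col1a1 with Col1a2 had 0.219 and 0.0988 in mesenchyme-like cells and 0.372 and 0.504 in glia-like cells.

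For type VI, Col6a2 per Col6a1 was 0.824 and 0.822 in mesenchyme-like cells, 1.51 and 1.08 in mural-like cells and 0.261 and 0.242 in glia-like cells. Col5a2 per Col5a1 was 4.47 and 4.48 in mesenchyme-like cells, 2.66 and 1.92 in mural-like cells and 2.82 and 2.63 in glia-like cells. In endothelial-like cells, on 29 and 9 Col5a1 UMIs, it was 17.2 (11.9 to 26.0) and 4.78 (2.30 to 11.2). Col9a3 per Col9a2 was 0.357 and 0.235 in mesenchyme-like cells, and 3.49 and 1.16 in glia-like cells. That was the pair whose proportion in glia differed most between the libraries among those measured there. Its control value in glia rests on Col9a2 at 25.6 CPM, close to the control background of 19.6 CPM.

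**Figure D5:**
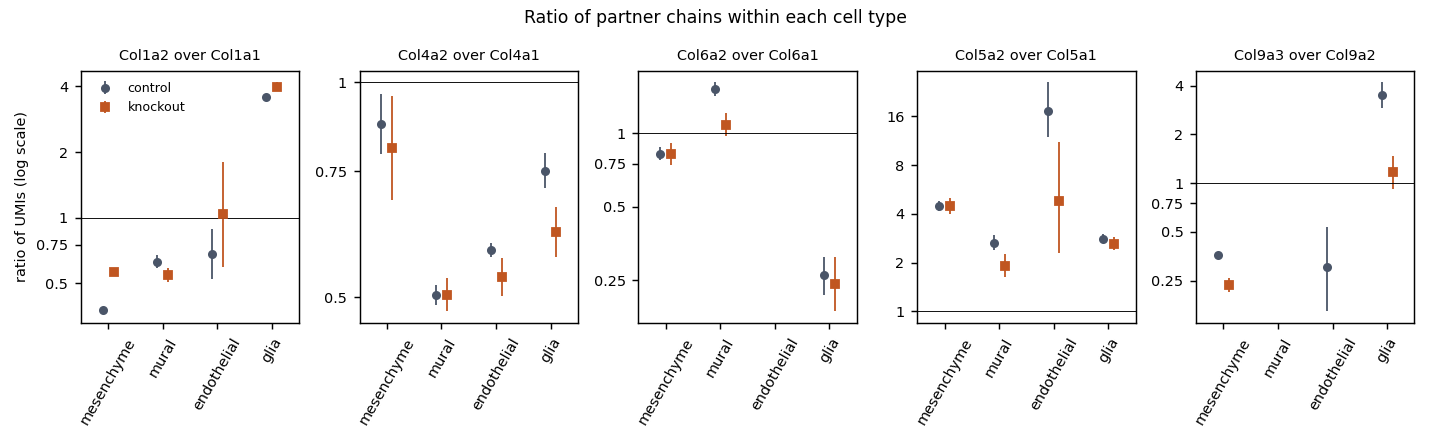
UMIs of 1 chain per UMI of its partner (log axis) for 5 pairs in 4 cell types (no point where a chain had too few UMIs), control as grey circles and knockout as orange squares, with 95% intervals. Col1a2 per Col1a1 lies below 1 in mesenchyme and mural cells and at 3.56 and 3.99 in glia, and Col4a2 per Col4a1 is 0.505 in both libraries in mural cells.

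Genes that fold, cleave, crosslink, degrade or bind collagen were read from a list of 50. In mesenchyme-like cells 42 had at least 20 UMIs, of which 4 were at least 1.5-fold lower and 5 higher, beside 13.1% and 11.3% of all genes. In mural-like cells these numbers were 39, 2 and 4 (all genes 11.7% and 10.9%), and in endothelial-like cells 32, 4 and 5 (15% and 11.8%). In glia-like cells they were 36, 2 and 2 (9.35% and 10.6%), and in macrophage-like cells 21, 5 and 2 (11.9% and 10.9%). Nothing is read from these small counts about the list as a whole. Lox, which starts the crosslinking of collagen, was the gene of the list that was higher in 3 types. Its ratio was 2.10 (1.53 to 2.88) in mesenchyme-like and 1.76 (1.22 to 2.51) in mural-like cells, and in endothelial-like cells it had 7 control and 27 knockout UMIs, a ratio of 19.8 (8.43 to 54.0). Among other crosslinking enzymes, Loxl2 had a ratio of 2.49 (1.98 to 3.12) in mural-like cells, with 16.8% of its knockout UMIs in 1 cell.

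Of the enzymes that modify chains in the cell, P4ha1, a prolyl 4-hydroxylase subunit, had 47.1 CPM in control and 125 CPM in knockout mesenchyme-like cells, a ratio of 2.66 (2.30 to 3.07). Adamts2, which removes the leading propeptide of fibrillar procollagens, had a ratio of 0.556 (0.390 to 0.776) in these cells. The uptake receptor Mrc2 was higher, at 234 and 386 CPM, a ratio of 1.65. Colgalt2, a collagen galactosyltransferase, had a ratio of 0.608 in endothelial-like cells, and the gelatinase Mmp2 had 1.67. In mural-like cells Pcolce2, which aids procollagen cleavage, had a ratio of 0.581, and in glia-like cells the chaperone Fkbp14 had 0.619. In macrophage-like cells Lair1, a receptor that binds collagen, had a ratio of 0.614, and the collagenase Mmp13 had 32 control and 0 knockout UMIs, with 43.8% of the control UMIs in 1 cell. It was at least 4.88-fold lower when 3 counts over the type are set as the floor, and the counting interval of the ratio reached up to 0.267. The neutrophil proteases Mmp8 and Mmp9 in mesenchyme-like cells were among the lower ones, at levels below those in lymphocytes and neutrophils.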

How the data were processed

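The deposited values are raw UMI counts per gene and cell barcode from Chromium 3' v3.1 libraries, in 1 filtered matrix for each genotype. Per the file headers, Cell Ranger 5.0.0 wrote the control matrix and Cell Ranger 6.0.1 the knockout matrix, so the software version differs with genotype. The build was mm10, per the submitters' processing notes, which give only Cell Ranger 6.0.1. The libraries held 35918862 and 17277162 UMIs in 3487 and 2563 barcodes.

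Kept barcodes had 500 or more genes, 1000 or more UMIs and a mitochondrial share of no more than 10%, and 20 control and 4 knockout barcodes were removed as doublets with Scrublet in scanpy 1.11.5 at an expected rate of 0.8% per 1000 cells. That is fewer than the expected rate, so doublets may remain. A cell was given a type when it showed at least 3 of that type's markers and at least 2 more than of any other type, a rule set after cell counts under 4 such rules were seen. UMIs were summed per type and library and scaled to the total (CPM). Ratios carry exact conditional Poisson intervals and shares exact Clopper-Pearson intervals, at 95%, for counting error only, and a count of 0 is bounded with 3 counts as the floor. Clusters within types used 2000 variable genes without collagens, 15 neighbours in 30 principal components and Leiden clustering at resolution 0.5, with Python 3.11.15, numpy 2.4.6, scipy 1.17.1 and pandas 2.3.3. The ratios and intervals were tested on simulated data.

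In each cell type, collagens with at least 20 UMIs and a level at least 3 times background are given. Named first are those at least 1.5-fold apart with an interval that leaves out 1 and the 5 of highest CPM. Pathway genes past the same limits are named, at most 6 a type. The collagens and all lists were chosen with earlier results of these data known, and the list of immediate early genes, the cluster settings, the printed promoters and the clusters described were chosen after these data were seen. Alternatives covered cell weighting, depth, scaling, filters, gating, sex-linked transcripts and single cells.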

Additional observations from a re-analysis of the deposited data

Results flagged for a closer look

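In all, Col8a1, Col15a1 and Col26a1 were at least 1.5-fold higher in the knockout library in 1 cell type and at least 1.5-fold lower in another, with both counting intervals leaving out 1. Each type has 1 library per genotype, so the difference between the types was not tested. Col8a1 had a ratio of 2.269 in mural-like cells and 0.6246 in mesenchyme-like cells, where 1 cell held 75.7% of the knockout UMIs. Col15a1 had a ratio of 2.681 in mesenchyme-like cells, on 32 and 33 UMIs, and 0.4677 in endothelial-like cells, on 2321 and 211 UMIs. In control mesenchyme-like cells its 4.06 CPM lay below the control background of 13.7 CPM. Col26a1 had a ratio of 2.039 in glia-like cells, on 53 and 64 UMIs, and 0.5269 in mesenchyme-like cells. Within glial cluster 3, which held 46 and 49 of these UMIs, the Col26a1 ratio was 1.07 (0.704 to 1.64), and within mesenchyme-like clusters 0, 1, 2 and 4 it was 1.16, 1.54, 1.02 and 0.804.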

How the results depend on the processing

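No paired analysis was possible because each genotype has 1 library. Over 46 named pairs of gene and cell type, 584 ratios were recomputed: 417 stayed inside the counting interval, 149 moved and 18 reversed. Doublets kept and totals without collagens moved none of 46 each, and cells with Y-linked UMIs reversed 7 of 43. Scaling by the median ratio shifted all genes by at most 0.06 (log2).

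The stricter gate named no number in advance. It was run first with at most 1 marker of a second type, which left 18 control and 23 knockout mural-like cells, and then, with those results seen, at most 3 and last 2. The limit of 2, below the gate's own minimum of 3 markers, is taken as the planned one, and the others were added after seeing the data. In mural-like cells the limit of 2 gave 2 lower and 2 higher collagens and a collagen total of 0.935, and the limit of 1 gave 1 and 2. The limit of 3 gave a total of 0.924 and a median of -0.22. In mesenchyme-like cells the limit of 1 gave 0 higher collagens, a total of 1.01 and a Col5a2 ratio of 1.16. It also gave mural-like ratios of 1.16 for Col4a1 and 1.06 for Col4a2. In glia-like cells the limit of 2 gave a total of 1.01 and a Col1a2 ratio of 1.04, and the limit of 1 gave 0 lower collagens, a total of 1.07 and a Col1a2 ratio of 1.10. In endothelial-like cells both gave 3 higher.

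In cells with Y-linked UMIs the mesenchyme-like median was 0.0418, with 5 lower collagens, a total of 1.02 and ratios of 1.06 for Col1a1, 0.937 for Col1a2, 1.13 for Col5a2, 8.90 for Col8a1 and 1.23 for Col9a1. There the mural-like cells had 1 lower and 7 higher collagens and a Col4a1 ratio of 1.07, and the endothelial-like cells 3 lower, 3 higher and a Col28a1 ratio of 2.73. Xist-positive cells gave a mural-like median of -0.30 and total of 0.954, 2 higher collagens in endothelial-like cells and a Col1a1 ratio of 1.09 in glia-like cells. Thinning gave 1 lower collagen and a total of 0.979 in mural-like cells, 0 higher in endothelial-like cells, 1 lower and 1 higher in glia-like cells, and ratios of 1.55 for Col8a1 in mesenchyme-like and 0.946 for Col26a1 in glia-like cells. The mitochondrial limit of 5% gave 4 lower and 7 higher in mural-like cells with a Col3a1 ratio of 1.02, and mesenchyme-like ratios of 1.03 for Col5a2 and 1.82 for Col8a1. Counting each cell equally gave 7 lower in mesenchyme-like cells and a mural-like total of 0.968, and median-ratio scaling a mural-like total of 0.986. Types from clusters gave 7 higher in mural-like cells. A minimum of 50 UMIs gave 4 lower in mural-like cells and 3 lower and 2 higher in endothelial-like cells. No minimum gave 6 higher in mesenchyme-like, 11 lower and 9 higher in mural-like and 9 higher in endothelial-like cells. Without the top cell of each gene, 3 were higher in endothelial-like cells. The cause of these shifts was not tested. Over all the alternatives the count of lower collagens in mesenchyme-like cells, reported as 11, ranged from 5 to 15. Depth limits chains with few UMIs, such as Col4a3, Col4a4 and Col28a1 outside glia.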
